A study of Mus musculus with 12 samples.

Results

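A set of 10 transcription factor genes known from mesenchymal transition and tendon formation were followed in mouse bone marrow mesenchymal stem cells (MSCs), taken as the rows of the deposited gene table whose names are Snai1, Snai2, Twist1, Twist2, Zeb1, Zeb2, Scx, Prrx1, Tcf21 and Srf. All 10 were found among the 55401 genes of the table. MSCs from C57BL/6 mice, bought as a cultured stock, were compared in 4 groups by mRNA sequencing, with 3 libraries in each. The first group was untreated and the second received TGF-β1 at 5 ng/mL. The other two received the same TGF-β1 together with supernatant from cultured M-MDSCs or G-MDSCs, and are called TGF-β1/M-MDSC supernatant and, for the latter, TGF-β1/G-MDSC supernatant. MDSCs, myeloid-derived suppressor cells, were induced from bone marrow with GM-CSF and IL-6 and sorted into the monocytic (M) and granulocytic (G) kinds. No group received a supernatant without TGF-β1 or medium from another cell type, so an effect of supernatant can be read only on top of TGF-β1.

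TGF-β1 acts through a pair of receptor kinases that phosphorylate SMAD2 and SMAD3, and it is the best known inducer of the myofibroblast state, in which a stromal cell builds contractile fibres and secretes matrix. The SNAIL factors (Snai1, Snai2) and the ZEB factors (Zeb1, Zeb2) are zinc finger repressors that bind E-box sequences and silence epithelial genes such as the one for E-cadherin. Twist1, Twist2, Scx and Tcf21 encode basic helix-loop-helix (bHLH) factors, which bind E-boxes as dimers with E proteins. Scx, scleraxis, marks tendon progenitors, and Tcf21 marks fibroblast progenitors of several organs. Prrx1 encodes a homeodomain factor of limb and craniofacial mesenchyme, and Srf encodes serum response factor, which binds CArG boxes and drives actin, contractile and immediate early genes with its cofactors.

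Levels are given in FPKM, fragments scaled to transcript length and library size, as the authors calculated them, and fold changes were estimated from the raw counts. The 12 libraries held from 73977669 to 84565450 counts. A gene was tested if it reached 1 FPKM in at least 3 libraries, which 12016 genes did, and 9 of the 10 factors were among them in all 12 libraries. Changes were called at an adjusted p under 0.05 in edgeR's quasi-likelihood test with Benjamini-Hochberg adjustment over all genes tested, and every adjusted p below comes from that test unless another is named. Markers of MSCs summed to between 500 and 598 FPKM in every library, but not all moved alike. With TGF-β1, 4 of the 7 tested rose (Itgb1, Cd44, Nt5e and Pdgfrb) and 3 fell (Ly6a, Thy1 and Pdgfra), where 16.1% of all genes passed as higher and 17.9% as lower. Nt5e, at 0.407 ± 0.0925 FPKM in untreated MSCs, was tested only through the treated groups, where it is high. Ly6a, which encodes Sca-1, was at 245 ± 5.35 FPKM in untreated MSCs, 16.2 ± 2.92 with TGF-β1, 92.5 ± 10.1 with the M-MDSC supernatant and 66.9 ± 3.20 with the G-MDSC supernatant (SD, n = 3). Relative to TGF-β1, Ly6a passed as higher and Pdgfrb as lower with the M-MDSC supernatant, where 2.83% and 1.95% of all genes did. With the G-MDSC supernatant Ly6a, Nt5e and Pdgfra passed as higher and Pdgfrb as lower, where 3.10% and 2.46% of all genes did.

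The promoters of Snai1 and Srf are shown because their genes carried the strongest and the most abundant signals among the factors and because each holds a site of the factor it encodes. The stretch directly before the start of Snai1 (RefSeq, GRCm38.p6, chr2:167537945-167538194, plus strand) has in capitals the E-box that the SNAIL zinc fingers recognise. The stretch before the start of Srf (GRCm38.p6, chr17:46556176-46556412, minus strand) has in capitals its pair of CArG boxes. Both are written 5′ to 3′.
Snai1: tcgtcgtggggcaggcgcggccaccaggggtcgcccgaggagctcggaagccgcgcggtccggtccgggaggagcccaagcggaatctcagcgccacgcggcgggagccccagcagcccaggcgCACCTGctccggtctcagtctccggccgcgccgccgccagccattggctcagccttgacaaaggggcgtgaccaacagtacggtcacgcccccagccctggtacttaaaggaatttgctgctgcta
Srf: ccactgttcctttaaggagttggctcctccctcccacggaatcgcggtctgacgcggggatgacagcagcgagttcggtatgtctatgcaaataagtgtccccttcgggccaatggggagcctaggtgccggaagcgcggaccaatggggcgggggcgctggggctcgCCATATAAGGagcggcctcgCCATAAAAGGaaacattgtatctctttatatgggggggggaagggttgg
The E-box CACCTG of Snai1, which reads CAGGTG on the other strand, begins 126 bases before the gene's start. CAGGTG on either strand occurs in 17.2% of 32851 RefSeq promoter stretches of 250 bases, so its presence is common. In the Srf promoter CCATATAAGG begins 69 bases and CCATAAAAGG 49 bases before the start, and a CArG box occurs in 1.47% of the same stretches. An E-box of the form CANNTG, which includes CAGGTG, occurs on either strand in 66.2% of all stretches, and the stretches of the other 6 factors for which RefSeq gave one (Srf, Twist1, Twist2, Prrx1, Zeb2 and Tcf21) hold none. Those of Prrx1, Tcf21 and Srf are shorter than 250 bases. These matches are descriptions of sequence, since binding was not measured here.

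With TGF-β1 alone, Snai1 rose 2.20-fold, Scx, Zeb1 and Srf rose, and Prrx1 and Twist1 fell. Snai2, Twist2 and Zeb2 did not pass the test, and Tcf21 was not detected. Thus 6 of the 9 factors tested passed against untreated MSCs, 4 higher and 2 lower, where 34.0% of all genes tested passed, 16.1% higher and 17.9% lower. The median log2 fold change was 0.07 over the 9 factors and 0.00048 over all genes tested. The FPKM ranges of the groups were apart for the same 6 factors that passed, and for 46.7% of all genes tested. RNA came from whole cultures, in which fewer cells of a type and less RNA per cell cannot be told apart. The labels do not say whether the 3 libraries of a group came from separate cultures, so p-values measure the spread between these libraries, which may be technical.

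**Figure D1:**
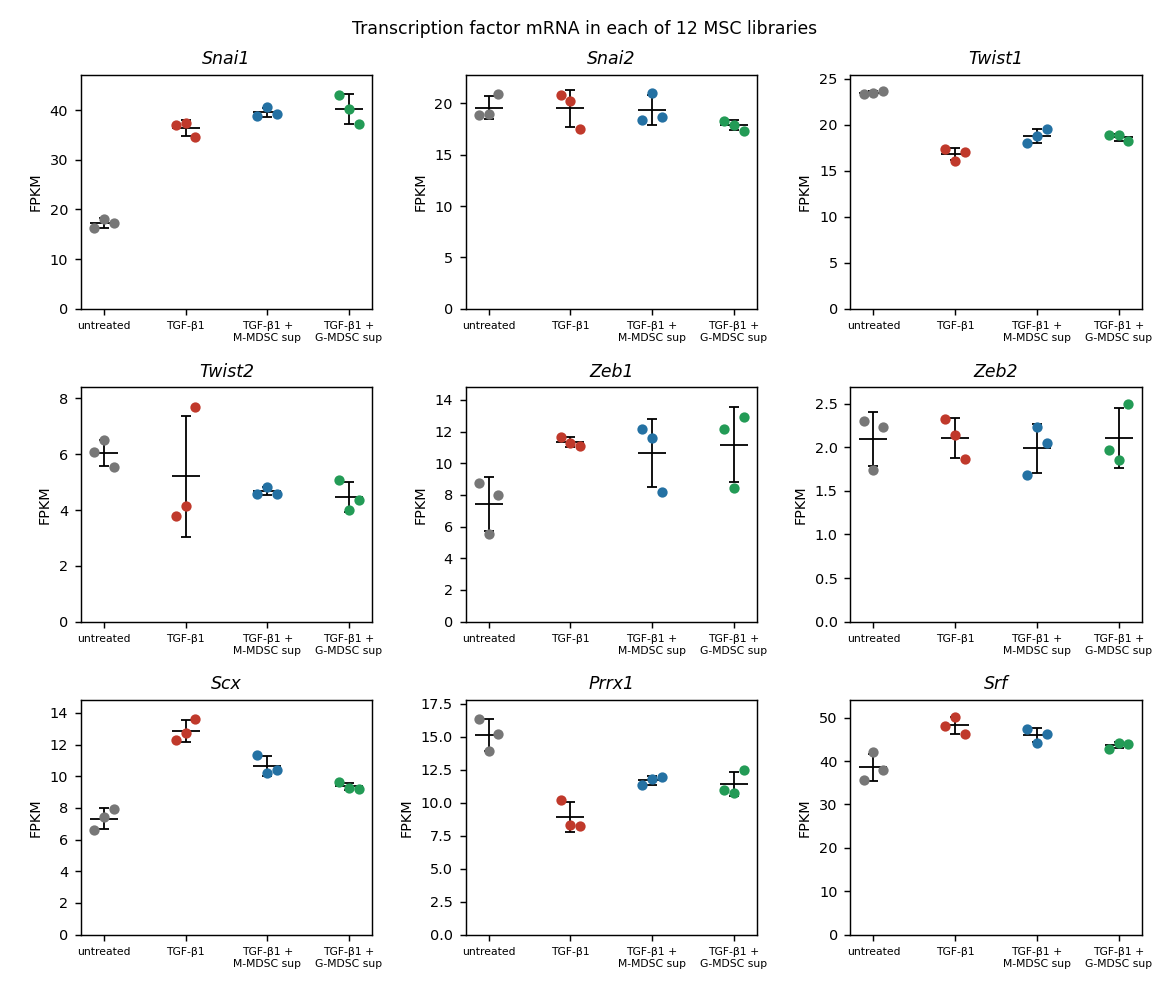
FPKM of 9 factors in each of the 12 libraries by treatment group, with points for the 3 libraries of a group, a long bar for the mean and error bars of 1 SD, all axes starting at 0. Snai1 lies between 16.2 and 18.1 FPKM in untreated MSCs and above 34 in the other libraries, while Twist2 has 1 library with TGF-β1 at 7.69 FPKM, above the rest.

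Snai1 (ENSMUSG00000042821, GRCm38 chromosome 2, 167538195 to 167542814, plus strand) encodes Snail, a zinc finger repressor and a well known target of TGF-β signalling. It was at 16.2, 18.1 and 17.3 FPKM in untreated MSCs and at 37.1, 37.4 and 34.6 FPKM with TGF-β1. Every library with TGF-β1 was therefore far above every untreated library. The log2 fold change was 1.14 (SE 0.064), and the adjusted p was 2.51e-07. Snai1 was the 1 factor that also passed the fold limit of 2 with an unadjusted p under 0.05, the authors' rule, which 6.74% of genes tested passed.

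Snai2 (ENSMUSG00000022676, chromosome 16, 14705852 to 14709385, plus strand) encodes Slug, the close relative of Snail. Its FPKM was 18.9, 19.0 and 20.9 in untreated MSCs and 20.9, 20.2 and 17.5 with TGF-β1. The groups overlapped, and the log2 fold change was 0.05 with a 95% interval from -0.12 to 0.23 (adjusted p = 0.653). In untreated MSCs the Snai2 mean of 19.6 FPKM stood above the Snai1 mean of 17.2 FPKM, and with TGF-β1 the Snai1 mean of 36.4 FPKM stood above the Snai2 mean of 19.5 FPKM, so the order of the SNAIL genes by level per length turned over.

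Zeb1 (ENSMUSG00000024238, chromosome 18) encodes a zinc finger and homeodomain repressor. It was at 8.77, 5.55 and 7.97 FPKM in untreated MSCs and at 11.7, 11.3 and 11.1 FPKM with TGF-β1. The groups did not overlap, although untreated replicate 2 was well below the other untreated libraries. The log2 fold change was 0.67 (SE 0.20, adjusted p = 0.0274), the least precise of the 6 calls. Without untreated replicate 2 it was 0.49 and no longer passed (adjusted p = 0.093), and leaving out any single library with TGF-β1 also took it out of the call, with a log2 fold change of 0.65 to 0.67. Zeb2 (ENSMUSG00000026872, chromosome 2, 44983632 to 45117395, minus strand), its paralogue, was low, at 2.31, 1.74 and 2.23 FPKM in untreated MSCs and 2.33, 2.14 and 1.87 FPKM with TGF-β1. These overlap throughout, with a log2 fold change of 0.07 and a 95% interval from -0.26 to 0.40 (adjusted p = 0.773).

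Twist1 (ENSMUSG00000035799, chromosome 12, 33957671 to 33959829, plus strand), a bHLH factor of the mesoderm and cranial mesenchyme, moved the other way from Snai1 and Zeb1. Untreated MSCs had 23.4, 23.5 and 23.7 FPKM, and MSCs with TGF-β1 had 17.3, 16.1 and 17.0 FPKM. Every library with TGF-β1 was below every untreated library. This was a log2 fold change of -0.42 (SE 0.047), with an adjusted p of 4.07e-05.

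Twist2 (ENSMUSG00000007805, chromosome 1, 91801461 to 91848028, plus strand), known for its role in dermal and bone mesenchyme, was at 6.10, 6.50 and 5.55 FPKM in untreated MSCs. With TGF-β1 it was at 3.78, 4.15 and 7.69 FPKM, so that 2 libraries were below every untreated library and the third above them all. Over all libraries its log2 fold change was -0.16 (95% interval -0.65 to 0.34, adjusted p = 0.642). Gm29100, a gene annotated on the opposite strand across the start of Twist2 (chromosome 1, 91798528 to 91802937), was listed with 958 counts in the same library, TGF-β1 replicate 3, and with 60 to 124 counts in the other 11. Without that library, the log2 fold change of Twist2 against untreated MSCs was -0.56 and passed (adjusted p = 0.0047). Without TGF-β1 replicate 1 instead, it was 0.0266 (adjusted p = 0.947), so the direction and the call depend on which library is left out. The kit marked strand, but whether the counting used it is not stated, so reads of Twist2 and Gm29100 may not be separable, and the part of Gm29100 in the Twist2 value was not tested.

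**Figure D2:**
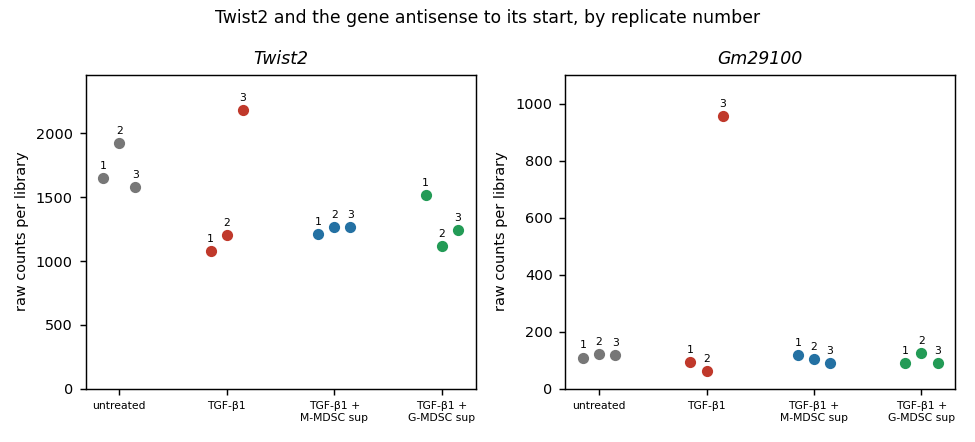
Raw counts of Twist2 and of the antisense gene Gm29100 in each of 12 libraries, numbered by replicate within each treatment group, both axes starting at 0. TGF-β1 replicate 3 is the highest library for both genes, with 958 counts of Gm29100 against 60 to 124 in the other 11.

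Prrx1 (ENSMUSG00000026586, chromosome 1, 163245119 to 163313710, minus strand) was at 16.3, 13.9 and 15.2 FPKM in untreated MSCs. It was at 10.2, 8.28 and 8.24 FPKM with TGF-β1, below every untreated library. Its log2 fold change was -0.71 (SE 0.091, adjusted p = 0.000134), the lowest of the 9 factors. Its paralogue Prrx2, another mesenchymal homeodomain gene, fell further, from 28.0 ± 1.17 to 9.90 ± 0.427 FPKM (SD, n = 3), with a log2 fold change of -1.44 (SE 0.091, adjusted p = 5.53e-07 in edgeR's test).

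Scx (ENSMUSG00000034161, chromosome 15, 76457452 to 76459458, plus strand) was at 6.60, 7.44 and 7.94 FPKM in untreated MSCs. With TGF-β1 it was at 12.3, 12.7 and 13.6 FPKM, above every untreated library. This was a log2 fold change of 0.87 (SE 0.080, adjusted p = 1.00e-05). Scx lies inside the intron between exons 3 and 4 of Bop1, a ribosome biogenesis gene on the opposite strand, and none of the 16 exons of that Bop1 transcript overlap it. Bop1 itself rose less, by 0.24 on the log2 scale (adjusted p = 0.0069).

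Srf (ENSMUSG00000015605, chromosome 17, 46548329 to 46556175, minus strand) was at 35.7, 42.0 and 37.9 FPKM in untreated MSCs and at 48.2, 50.2 and 46.3 FPKM with TGF-β1. The groups did not overlap, and the log2 fold change was 0.38 (SE 0.060, adjusted p = 0.000549). In FPKM Srf had the highest mean of the 10 factors in all 4 groups.

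Tcf21 (ENSMUSG00000045680, chromosome 10, 22817281 to 22820174, minus strand) had 0 counts in 10 of the 12 libraries, and 8 and 4 counts in replicates 1 and 2 with TGF-β1/G-MDSC supernatant. If each count stands for a separate fragment, a count of 0 allows up to 3 counts in a library. At these depths that is 0.0355 to 0.0406 CPM (counts scaled to library size), and this limit covers counting error only. Of counts from 1 to 12 in these data, 44.3% are multiples of 4, as are the 8 and 4 here, so the limit may be too low. No fold change is given for Tcf21.

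The order of the levels per length shifted with treatment. In untreated MSCs it ran Srf, Twist1, Snai2, Snai1, Prrx1, Zeb1, Scx, Twist2, Zeb2 and Tcf21 by mean FPKM, and the FPKM of 2 neighbouring pairs overlapped, Snai1 with Prrx1 and Zeb1 with Scx. With TGF-β1 the order was Srf, Snai1, Snai2, Twist1, Scx, Zeb1, Prrx1, Twist2, Zeb2 and Tcf21, and no neighbours overlapped. With TGF-β1/M-MDSC supernatant Snai2 overlapped Twist1, Prrx1 overlapped Scx, and Scx overlapped Zeb1. With TGF-β1/G-MDSC supernatant 4 neighbouring pairs overlapped, Srf with Snai1, Twist1 with Snai2, Prrx1 with Zeb1, and Zeb1 with Scx.

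M-MDSC supernatant on top of TGF-β1 raised Prrx1 and left the other 8 factors tested short of the threshold, while 4.78% of all genes passed in this comparison and 2.83% passed as higher. The FPKM ranges were apart for 4 of the 9 factors (Snai1, Twist1, Scx and Prrx1) and for 24.0% of all genes. Prrx1 was at 11.3, 11.8 and 11.9 FPKM with TGF-β1/M-MDSC supernatant, above the 3 libraries with TGF-β1 alone and below the 3 untreated libraries. The log2 fold change against TGF-β1 was 0.37 (SE 0.091, adjusted p = 0.0463). The call was narrow. It was lost when the 2 groups were fitted alone, with a replicate block (adjusted p = 0.0573) and when any 1 of 8 libraries was left out (untreated replicate 3, TGF-β1 replicates 2 and 3, TGF-β1/G-MDSC supernatant replicates 1 and 2, and each replicate with TGF-β1/M-MDSC supernatant), with log2 fold changes of 0.32 to 0.39. Scx, at 11.4, 10.2 and 10.4 FPKM, was below every library with TGF-β1 alone. Its log2 difference was -0.30 (adjusted p = 0.0651), and DESeq2 called it.

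G-MDSC supernatant lowered Scx and left the other 8 factors tested short of the threshold, where 5.56% of all genes passed and 2.46% passed as lower. The FPKM ranges were apart for 4 of the 9 factors (Twist1, Scx, Prrx1 and Srf) and for 22.7% of all genes. Scx was at 9.63, 9.27 and 9.18 FPKM, below the libraries with TGF-β1 alone and above the untreated libraries. The log2 fold change against TGF-β1 was -0.49 (SE 0.079, adjusted p = 0.00415), and that of Bop1 around it was 0.008. Prrx1, at 10.99, 10.8 and 12.4 FPKM, was above every library with TGF-β1 alone. Its log2 difference was 0.33 (adjusted p = 0.0667), and DESeq2 called it.

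The other factors moved less with either supernatant. Snai1 was at 38.8, 40.6 and 39.2 FPKM with the M-MDSC supernatant and at 43.1, 40.2 and 37.2 FPKM with the G-MDSC supernatant. Set against TGF-β1 alone, its log2 fold changes were 0.10 (95% interval -0.041 to 0.24) and 0.12 (95% interval -0.022 to 0.26), so neither interval reached a decrease of more than 0.041. Twist1 was at 18.0, 18.8 and 19.5 FPKM with the M-MDSC supernatant and at 18.9, 18.9 and 18.2 FPKM with the G-MDSC supernatant, above every library with TGF-β1 alone in both, but short of the threshold (log2 fold changes of 0.14 and 0.12, adjusted p = 0.159 and 0.188). Srf was at 47.5, 44.2 and 46.3 FPKM and at 42.8, 44.1 and 44.0 FPKM. Its log2 differences from TGF-β1 alone were -0.09 and -0.17 (adjusted p = 0.496 and 0.154).

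Zeb1 spread more within the supernatant groups, at 12.1, 11.6 and 8.18 FPKM with the M-MDSC supernatant and at 12.1, 8.45 and 12.9 FPKM with the G-MDSC supernatant. In each group 1 library was near the untreated level and the rest near the level with TGF-β1. Snai2 was at 18.4, 21.0 and 18.7 FPKM and at 18.3, 17.9 and 17.4 FPKM, and Zeb2 at 1.68, 2.23 and 2.05 FPKM and at 1.97, 1.86 and 2.49 FPKM, both overlapping the libraries with TGF-β1 alone. Twist2 was at 4.59, 4.84 and 4.59 FPKM and at 5.07, 4.0 and 4.35 FPKM. Its log2 fold changes against TGF-β1 were -0.18 and -0.24, and without TGF-β1 replicate 3 they became 0.23 and 0.16, so the direction rests on that library.

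The mean FPKM with either supernatant lay between the untreated mean and the TGF-β1 mean for 5 of the 6 factors that changed with TGF-β1, namely Twist1, Zeb1, Scx, Prrx1 and Srf, and above the TGF-β1 mean for Snai1. Of all 4082 genes that passed with TGF-β1, 47.2% had both supernatant means between. Both comparisons share the TGF-β1 libraries, so they are not independent of each other or of the change with TGF-β1.

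Against untreated MSCs, 5 of 9 factors passed with TGF-β1/M-MDSC supernatant (35.2% of all genes) and 6 of 9 with TGF-β1/G-MDSC supernatant (34.8% of all genes). Snai1, Scx and Srf were higher and Prrx1 and Twist1 lower in both. For Snai1 the log2 fold changes were 1.23 and 1.25, and for Scx they were 0.57 and 0.38. For Srf they were 0.29 and 0.21, for Prrx1 -0.34 and -0.38, and for Twist1 -0.29 and -0.30. Zeb1 passed with the G-MDSC supernatant (0.62, adjusted p = 0.0372) and not with the M-MDSC supernatant (0.55, adjusted p = 0.0581), values that differ by less than their SE of 0.20, and DESeq2 also called it with the M-MDSC supernatant (adjusted p = 0.0121). In edgeR's test it passed there without untreated replicate 1, TGF-β1/G-MDSC supernatant replicate 2 or TGF-β1/M-MDSC supernatant replicate 3 (0.55 to 0.71, adjusted p = 0.0221 to 0.0416). With the G-MDSC supernatant the Zeb1 call was lost without untreated replicate 2 or 3, TGF-β1 replicate 2, or TGF-β1/G-MDSC supernatant replicate 1 or 3 (0.46 to 0.67), and also with no filter, with the 2 groups fitted alone and in both limma fits (adjusted p = 0.0524 to 0.0746). The Srf call was lost without untreated replicate 1 or 3 or TGF-β1/G-MDSC supernatant replicate 2 or 3 (0.15 to 0.20), and with the 2 groups fitted alone (0.21, adjusted p = 0.0538). Twist2 passed as lower when TGF-β1 replicate 3 was left out, with the M-MDSC supernatant (-0.33, adjusted p = 0.0299) and the G-MDSC supernatant (-0.40, adjusted p = 0.0131). It also passed in fits of the 2 groups alone, which do not hold that library (-0.33 and -0.40, adjusted p = 0.0258 and 0.0417). By the fold limit of 2, 1 factor passed in each, Snai1, where 6.98% and 6.80% of all genes did. By the fold limit of 2, 1 factor passed in each, Snai1, where 6.98% and 6.80% of all genes did. These comparisons share the untreated libraries.

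**Figure D3:**
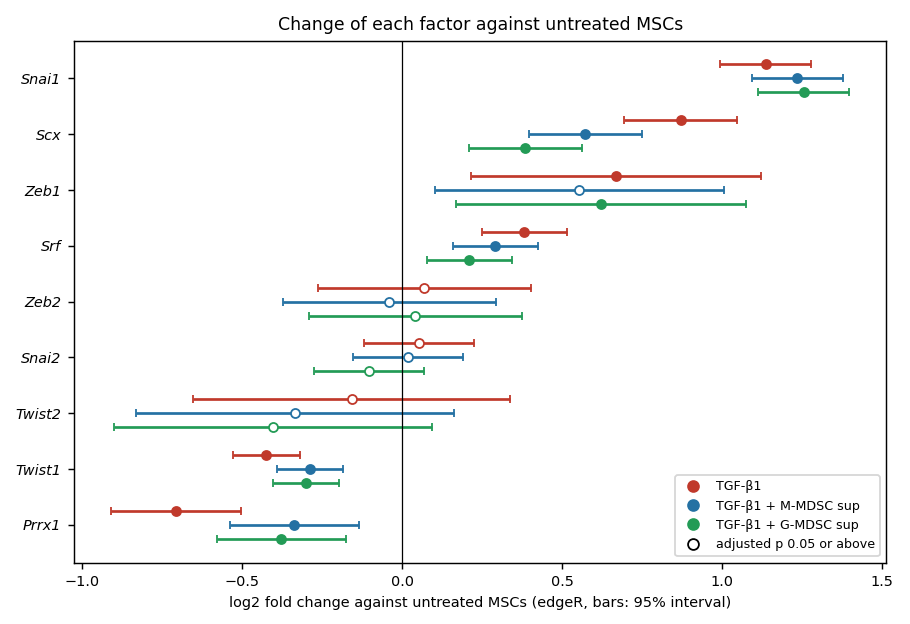
Log2 fold change of each of 9 factors against untreated MSCs, estimated with edgeR, for the 3 treated groups of 3 libraries each. Bars are 95% intervals, and filled points have an adjusted p under 0.05. Snai1 lies above 1.1 in all 3 groups, whereas Prrx1 and Twist1 lie below 0 in all 3.

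Between the supernatants no factor passed, where 0.125% of all genes did in edgeR's test, and 1 factor, Scx, had an unadjusted p under 0.05, as 6.33% of all genes did. DESeq2 also called 0 factors, and 121 genes in all against 15 by edgeR. The FPKM ranges were apart for Scx, Snai2 and Srf, all higher with the M-MDSC supernatant, and for 1441 of the 12016 genes tested. For Scx the log2 difference was 0.19 (95% interval 0.013 to 0.36, adjusted p = 0.763 in edgeR's test). The log2 differences were 0.12 for Snai2 and 0.08 for Srf, and those of all 8 factors other than Scx lay between -0.08 and 0.12. For Snai1 the 95% interval of the difference was -0.16 to 0.12, for Prrx1 -0.16 to 0.24 and for Twist1 -0.092 to 0.12.

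Transcripts known from kidney tubule were present in the supernatant groups. Kap, the kidney androgen regulated gene, had 0 counts in all untreated libraries and all libraries with TGF-β1 alone. It had 773, 537 and 4246 counts with TGF-β1/M-MDSC supernatant and 2474, 3185 and 3010 with TGF-β1/G-MDSC supernatant. The kidney marker list summed to 30.2 to 35.9 FPKM in untreated MSCs, mostly of Aqp1, to 5.53 to 9.58 with TGF-β1, to 15.97 to 88.2 with the M-MDSC supernatant and to 52.4 to 66.4 with the G-MDSC supernatant. Slc34a1 and Umod were at 0 in all libraries without supernatant. Kap was present in all 6 libraries with supernatant. Not all of the list went this way. Aqp1 was lower relative to TGF-β1, by log2 fold changes of -0.33 and -0.40 with the M-MDSC and G-MDSC supernatants (adjusted p = 0.0910 and 0.0328 in edgeR's test). Over all genes 2.46% passed as lower in the latter comparison. Cubn was not tested, with group means of 0.386 to 0.454 FPKM. Markers of myeloid and other blood cells summed to 6.20 to 7.10 FPKM in untreated MSCs, 2.27 to 3.18 with TGF-β1, 4.32 to 6.80 with the M-MDSC supernatant and 5.63 to 8.47 with the G-MDSC supernatant. Among them Lyz2, the lysozyme gene of myeloid cells, rose from 0.0573 ± 0.0502 FPKM with TGF-β1 to 1.54 ± 0.828 and 1.87 ± 0.281 FPKM with the M-MDSC and G-MDSC supernatants (SD, n = 3; log2 fold changes of 4.60 and 4.87, adjusted p = 0.0262 and 0.0183 in edgeR's test). Lyz2 averaged 0.115 FPKM in untreated MSCs, so it was tested only through the supernatant groups, where it is high. It was the 1 of the 5 listed markers tested that passed in each comparison. Over all genes 2.83% and 3.10% passed as higher there. The part of these transcripts in the supernatant results was not tested.

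The bHLH factors depend on partners and inhibitors, and the inhibitors were lower with TGF-β1. Id1, Id2 and Id3, which encode helix-loop-helix proteins that bind E proteins and keep them from DNA and are known targets of BMP signalling, all fell. Id1 went from 84.9 ± 2.24 to 35.5 ± 4.35 FPKM (SD, n = 3; log2 fold change -1.20), Id2 from 15.8 ± 0.474 to 4.65 ± 0.0941 FPKM (-1.71) and Id3 from 46.3 ± 1.11 to 12.4 ± 0.597 FPKM (-1.84). The E protein genes Tcf3, Tcf4 and Tcf12 did not pass, with log2 fold changes of 0.02, 0.12 and -0.01. Of the 7 listed genes, 6 were tested, and 3 passed, all lower, where 17.9% of all genes passed as lower. The median log2 fold change was -0.61, against 0.00048 over all genes tested. Id2 rose with both supernatants relative to TGF-β1, by log2 fold changes of 0.40 (adjusted p = 0.0198) and 0.54 (adjusted p = 0.00296), and was the 1 of the 6 that passed in each, where 2.83% and 3.10% of all genes passed as higher. The log2 fold changes of Id1 and Id3 were -0.08 to 0.02, and those of Tcf3, Tcf4 and Tcf12 were -0.37 to -0.05.

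Of 10 corepressor genes whose products are recruited by SNAIL and ZEB factors, Ctbp2 (0.28), which encodes a partner of the ZEB proteins, and Kdm1a (0.28), which encodes the histone demethylase LSD1, rose with TGF-β1 on the log2 scale. Ajuba, which encodes a LIM protein that binds Snail, fell (-0.18). The other 7 did not pass, so that 3 of 10 passed against 34.0% of all genes, and the median log2 fold change of the 10 was 0.03. None of the 10 passed with either supernatant against TGF-β1 in edgeR's test, where 2 and 1 had an unadjusted p under 0.05 with the M-MDSC and G-MDSC supernatants and DESeq2 called 1 and 0. Over all genes 4.78% and 5.56% passed in these comparisons, so few calls among 10 genes say little about the list.

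Few genes that SNAIL and ZEB factors are known to silence could be read in these cells. Of 19 epithelial genes listed, 3 were tested and 2 passed as lower with TGF-β1, where 17.9% of all genes did, and those for E-cadherin, Epcam, occludin and the listed claudins did not reach the level needed. Krt19, an epithelial keratin, fell from 4.91 ± 0.211 to 0.256 ± 0.150 FPKM (SD, n = 3; log2 fold change -4.19, SE 0.63), and Llgl2, a cell polarity gene, fell from 3.15 ± 0.0960 to 1.11 ± 0.137 FPKM (-1.44, SE 0.10). Krt19 reached 1 FPKM only in the untreated libraries, with means of 0.255 and 0.243 FPKM with the M-MDSC and G-MDSC supernatants. It was therefore tested only through the group where it is high, and the filter favoured its call as lower. Neither Krt19 nor Llgl2 passed with a supernatant relative to TGF-β1, with log2 fold changes of -0.09 to 0.10. Cdh3, P-cadherin, did not pass with TGF-β1 (-0.14, adjusted p = 0.511). The other 16 had at most 83 counts in any library. Of 9 mesenchymal genes of the transition, 8 were tested, and 5 rose with TGF-β1, with a median log2 fold change of 0.41, where 16.1% of all genes passed as higher. Itga5, a fibronectin receptor subunit, rose by a log2 fold change of 2.18, Cdh11, a mesenchymal cadherin, by 1.18, Mmp14, a membrane protease, by 0.50, Fn1, fibronectin, by 0.48 and Sparc, a matrix glycoprotein, by 0.34. S100a4, often used as a fibroblast marker, fell by 1.31 on the log2 scale, and Cdh2 and Vim did not pass (-0.07 and 0.16). Fn1, Cdh11, Sparc and S100a4 fell with both supernatants relative to TGF-β1, by log2 fold changes between -0.28 and -0.40, where 1.95% and 2.46% of all genes passed as lower.

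The listed tendon genes that could be tested followed the direction of Scx in part. Of 11 listed, 6 were tested and 5 rose with TGF-β1, with a median log2 fold change of 0.88, where 16.1% of all genes passed as higher. Fmod, which encodes the collagen-binding proteoglycan fibromodulin, rose from 0.504 ± 0.148 to 5.75 ± 0.614 FPKM (SD, n = 3; log2 fold change 3.56, SE 0.21). Fmod reached 1 FPKM only in libraries with TGF-β1, so the 5 that rose and the median include a gene tested only through groups where it is high. Tnc, tenascin C, rose from 59.1 ± 3.95 to 285 ± 15.8 FPKM (2.33), and Col1a1, Col1a2 and Dcn, for type I collagen and decorin, rose by 1.11, 0.64 and 0.56 on the log2 scale. Egr1, a zinc finger factor of tendon that is also an immediate early gene, fell (-0.79). Mkx, Thbs4 and Col14a1 did not reach the level needed to be tested, and Tnmd, tenomodulin, and Kera, keratocan, had 0 counts in every library. Fmod, Tnc and Col1a2 fell with both supernatants relative to TGF-β1, Fmod by log2 fold changes of -0.80 and -0.93 and Tnc by -0.42 and -0.35. These are 3 of the 6 tested, where 1.95% and 2.46% of all genes passed as lower. Col1a1 did not pass (-0.17 and -0.23, adjusted p = 0.182 and 0.0613). Dcn did not pass with the M-MDSC supernatant (0.05) and rose with the G-MDSC supernatant (0.45, adjusted p = 0.0351).

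SRF acts with cofactors that sense actin or growth factor signals. Of 6 cofactor genes, 5 were tested and 3 rose with TGF-β1, Mrtfa, which encodes an actin-sensing coactivator (log2 fold change 0.71), and Elk1 and Elk3, which encode ternary complex factors (0.28 and 0.37). Myocd, myocardin, had 0 counts in every library. The median log2 fold change of the 5 was 0.28, and 16.1% of all genes passed as higher. None of them passed with a supernatant relative to TGF-β1 in edgeR's test, where 0 had an unadjusted p under 0.05, and DESeq2 called 0. Over all genes 4.78% and 5.56% passed, so 0 of 5 does not set the cofactors apart, and their SEs there reached 0.16.

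All 14 listed SRF targets were tested, and 7 rose and 2 fell with TGF-β1, with a median log2 fold change of 0.27, where 16.1% of all genes passed as higher and 17.9% as lower. Among the contractile genes, Acta2, smooth muscle actin, rose from 1528 ± 93.3 to 2123 ± 47.4 FPKM (SD, n = 3; log2 fold change 0.53), Tagln, transgelin, from 127 ± 6.00 to 189 ± 4.62 FPKM (0.63) and Cnn1, calponin, from 24.7 ± 4.58 to 47.3 ± 5.37 FPKM (0.99). Actg2, Tpm2, Flna and Fhl2 also rose, by log2 fold changes of 0.75, 0.29, 0.25 and 0.14. The pair that fell, Fos (-2.09) and Egr1 (-0.79), are immediate early genes. With the M-MDSC supernatant 5 of the 14 fell relative to TGF-β1 and with the G-MDSC supernatant 7 fell, where 1.95% and 2.46% of all genes passed as lower, and none rose in either comparison, by edgeR or DESeq2 or at an unadjusted p under 0.05 (0 in each). The median log2 fold changes were -0.22 and -0.27, against -0.013 and -0.014 over all genes tested. Acta2 was at 1594 ± 74.6 and 1516 ± 72.2 FPKM with the M-MDSC and G-MDSC supernatants, a log2 fold change of -0.44 and -0.51 against TGF-β1 and of 0.10 and 0.02 against untreated MSCs (adjusted p = 0.191 and 0.812).

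In edgeR's test 0 of the 14 targets were called higher than in untreated MSCs with either supernatant, where 16.4% of all genes were in each comparison. With the M-MDSC supernatant 1 had an unadjusted p under 0.05 and DESeq2 called 1, and with the G-MDSC supernatant both numbers were 0. Cnn1, the gene DESeq2 called, was at 0.40 and 0.26 on the log2 scale against untreated MSCs (adjusted p = 0.0916 and 0.282 in edgeR's test), above the values of Srf, 0.29 and 0.21. Tpm1, Egr1 and Fos were called lower than in untreated MSCs with both supernatants, as 18.9% and 18.4% of all genes were, Tpm1 by log2 fold changes of -0.19 and -0.25. The difference between Srf and its targets was not tested. A RefSeq promoter stretch was found for 10 of the 14 targets, and 3 of these genes, Myl9, Vcl and Fhl2, have a CArG box in a stretch. The stretches of Acta2, Cnn1, Tpm1, Tpm2, Cald1, Flna and Fos hold none. A CArG box occurs in 1.47% of all stretches of 250 bases. That share is per stretch and the count is per gene, with 2 stretches each for Cald1 and Fhl2, so they are on unlike scales.

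**Figure D4:**
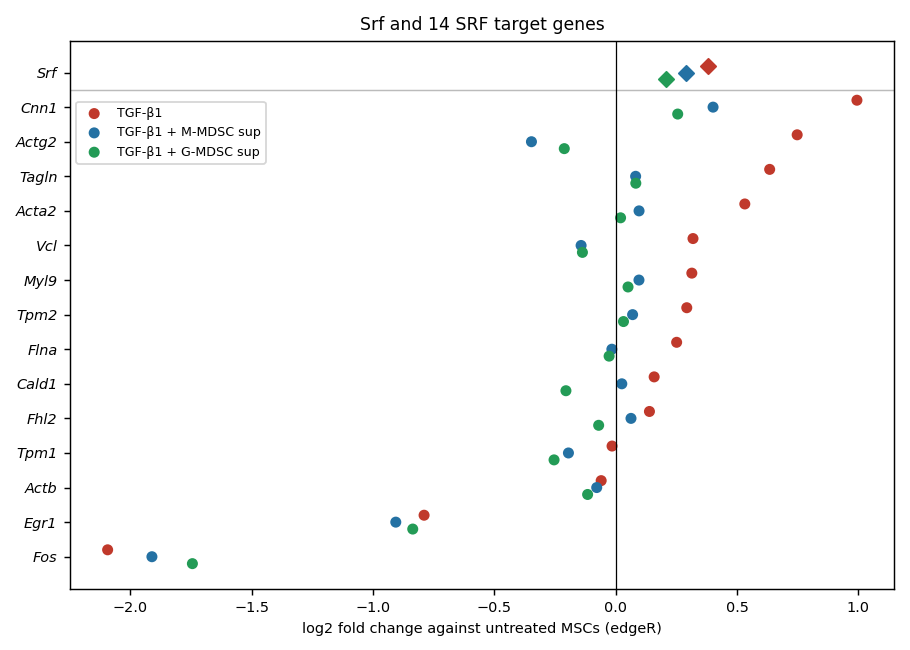
Log2 fold change against untreated MSCs of Srf (diamonds) and of 14 SRF target genes (circles), estimated with edgeR from 3 libraries in each of 3 treated groups. With either supernatant Acta2, Tagln and Tpm2 lie within 0.1 of 0, Fos and Egr1 stay below -0.7, and Srf lies at 0.29 and 0.21.

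Genes whose profile across the 12 libraries was most like that of a factor are given as a description, since all libraries carry the same treatment differences. The likeness is the Pearson correlation of log2 CPM over 12 libraries. For Snai1 they were Abcb1a, Il11 and Spsb1, each with r = 0.99. The cytokine gene Il11 went from 3.77 ± 0.255 FPKM in untreated MSCs to 34.3 ± 3.03 with TGF-β1, 42.6 ± 4.02 with the M-MDSC supernatant and 48.1 ± 2.89 with the G-MDSC supernatant (SD, n = 3). For Scx the leading gene was Cadm4, an adhesion molecule (r = 0.98), at 3.85 ± 0.282, 12.1 ± 0.342, 7.82 ± 0.574 and 6.72 ± 0.218 FPKM in the same order. For Twist1 it was Car13, a carbonic anhydrase (r = 0.99), for Zeb1 Cfap157 (r = 0.94), for Prrx1 Ifit2, an interferon-induced gene (r = 0.97), and for Srf Loxl1, a collagen and elastin crosslinking enzyme (r = 0.98).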

How the data were processed

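Poly(A) mRNA of 12 MSC libraries was sequenced in pairs with a strand-marking kit. The authors trimmed reads with cutadapt 1.9, aligned them to GRCm38 with HISAT2 2.0.4 and assembled transcripts with StringTie 1.3.4d. The deposited table holds raw counts per gene, whose counting tool and use of strand are not given in the sources used here, and FPKM calculated by the authors, which give genes without counts a small constant. It has 0 sample columns that were not used. Of counts from 1 to 12, 44.3% are multiples of 4.

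Counts were scaled by TMM (factors 0.978 to 1.03) and modelled by edgeR 4.0.16 (R 4.3.3) over all 4 groups at once, and its quasi-likelihood F test (two-sided) was run for genes with at least 1 FPKM in at least 3 libraries. P-values were adjusted over all genes tested at a threshold of 0.05. Groups came from the labels. The 10 factors are all named, together with genes of lists of relatives, partners and targets and, for each changed factor, the gene or genes most alike. The factors and lists were chosen with earlier results of these data known. Alternatives were DESeq2 1.42.0, limma 3.58.1 on log2(FPKM + 1) and log2(FPKM + 0.1), other filters and scaling, counts divided by 4, the authors' rule of a fold limit of 2, a replicate block and leaving out single libraries. Promoter stretches from RefSeq (GRCm38.p6) ended at the deposited gene start where it came first. Windows were found for 7 of the 10 factors.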

Additional observations from a re-analysis of the deposited data

How the results depend on the processing

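The fold changes of the 9 factors in the 6 comparisons, 54 values, were recomputed under 21 alternatives, 12 of which left out 1 library. Of the 1134 values this gave, 1061 kept their direction and their side of the threshold, 28 lost their call, 14 gained one and 31 changed sign. The labels do not say what the replicate numbers stand for, and no sign of pairing by number was seen. With the group means of log2 CPM taken out, same-numbered libraries of different groups correlated at a mean of -0.0038 over 18 pairs. Among these, 0 pairs were over 0.1, against 5 of the 36 pairs with different numbers, whose mean was 0.0020. Of the 12 libraries, 2 correlated best with their own number. With the replicate block, 0 factors passed for M-MDSC supernatant against TGF-β1, where Prrx1 had passed, and no other call changed. Fitting only the 2 groups compared also gave 0 there. DESeq2 gave 2 for M-MDSC supernatant against TGF-β1 and 2 for G-MDSC supernatant against TGF-β1, while its calls over all genes rose from 574 to 830 and from 668 to 990. By the fold limit of 2, 1 factor passed in each of the 3 treated groups against untreated MSCs, and 0 passed with either supernatant against TGF-β1. Leaving out single libraries gave 0 to 2 factors for M-MDSC supernatant against TGF-β1 and 1 to 2 for G-MDSC supernatant against TGF-β1. The number was 2 without untreated replicate 1 in the former, by adding Scx, and 2 without untreated replicate 2 or TGF-β1 replicate 1 in the latter, by adding Prrx1. Against untreated MSCs the number ran from 4 to 7 with the G-MDSC supernatant. The cause of these changes was not tested.

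Snai2 changed sign under limma, to -0.00641 and -0.00683 with TGF-β1 and to -0.0188 and -0.0197 with TGF-β1/M-MDSC supernatant against untreated MSCs, with pseudocounts of 1 and 0.1. The other changes of sign came from leaving out single libraries and concern values that did not pass over all libraries. For TGF-β1 against untreated MSCs the log2 fold changes ran for Twist2 from -0.56 to 0.0266 and Zeb2 from -0.0525 to 0.14. For M-MDSC supernatant against TGF-β1 they ran for Snai2 from -0.10 to 0.0116, Twist2 from -0.36 to 0.23 and Zeb1 from -0.22 to 0.0445, and for G-MDSC supernatant against TGF-β1 for Twist2 from -0.43 to 0.16, Zeb1 from -0.17 to 0.12 and Zeb2 from -0.17 to 0.0556. Between the supernatants they ran for Snai1 from -0.0702 to 0.0351, Twist1 from -0.0147 to 0.0395, Twist2 from -0.00848 to 0.17, Zeb1 from -0.23 to 0.0914, Zeb2 from -0.17 to 0.0598 and Prrx1 from -0.00138 to 0.11. Against untreated MSCs they ran with the M-MDSC supernatant for Snai2 from -0.0475 to 0.0631 and Zeb2 from -0.15 to 0.0666, and with the G-MDSC supernatant for Zeb2 from -0.0999 to 0.12. At these depths Tcf21 had too few counts to test, and the precision of the other factors rests on 3 libraries a group and a spread estimated over all 12.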
